A study of Mus musculus with 115 samples.

Results

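The genes described here are 44 mitochondrial carriers of the solute carrier family SLC25, out of 23930 amplicons of a mouse transcriptome panel counted in heart RNA. They were chosen by symbol, with no measured value in the rule: genes whose symbol begins with Slc25a, together with Ucp2 and Ucp3, leaving out the translocators of ADP and ATP, Slc25a4 and Slc25a31. Of the 44, 40 had enough counts to be tested, among 15403 genes tested in all. The question was which other carriers differ in hearts that have lost Ant1, the protein of Slc25a4 and the main exchanger of ADP and ATP in heart mitochondria.

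SLC25 carriers are small proteins of the inner mitochondrial membrane, and each passes a limited set of solutes between cytosol and matrix. Heart mitochondria use them to bring in phosphate and the ADP from which ATP is made, to move reducing equivalents through the malate-aspartate shuttle, and to bring in carnitine esters of fatty acids. Others supply the matrix with the cofactors, iron and glutathione on which its enzymes depend, and the uncoupling proteins form a branch of the same family.

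The mice were C57BL/6JEiJ (wild type), C57BL/6JEiJ Ant1-/- (knockout) or C57BL/6JEiJ Ant1-/- ND6P25L (knockout ND6), the last with an altered ND6 subunit of respiratory complex I encoded by mitochondrial DNA. All had received 2.5e+11 vector genomes at the pericardium, either of AAV2/9Des-Gfp-mAnt1 (Ant1 vector), which carries Gfp and mouse Ant1, or of AAV2/9Des-Gfp (control vector). Hearts were collected 1, 3, 6, 9 and 12 months later, but the labels give neither the time nor the sex of a single heart, so the groups may differ in both. Libraries whose titles share a number, genotype and vector code were taken as 1 heart, which made 22 hearts of 110 libraries. No uninjected heart was among them.

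The control vector groups held 4 wild type, 3 knockout and 3 knockout ND6 hearts, and the Ant1 vector groups 3 wild type, 4 knockout and 3 knockout ND6 hearts. Another 2 knockout ND6 hearts, 61 and 91, carry the control vector in 1 label and the title code of the Ant1 vector in another, and were kept apart. Summed counts per heart ran from 16827518 to 54779297. Levels are given as CPM, counts scaled to a common library total, which can be compared between hearts for 1 gene but not between genes, since the yield of an amplicon differs from gene to gene. Nothing in the labels says that hearts came from separate litters or cages, so p values measure the spread between these hearts. In RNA from whole hearts, fewer cells of a type and less RNA per cell cannot be told apart. Summed cardiomyocyte markers (6 genes) lay between 39500 and 47200 CPM in every heart. Summed atrial markers (3 genes) were 1280 to 4530 CPM in knockout ND6 hearts labelled Ant1 vector. They were 4800 to 5320 CPM in wild type and 4840 to 5440 CPM in knockout hearts with that vector. With the control vector they were 4210 to 6830 CPM in wild type, 4580 to 5030 in knockout and 4640 to 4890 CPM in knockout ND6 hearts. Summed skeletal muscle markers (5 genes) were 96.1 to 204 CPM in wild type and 325 to 988 CPM in the Ant1-null groups, without overlap. Nearly all of that sum was Acta1, an actin also made in heart, with Myh4 between 0.9097 and 2.746 CPM and Myod1 between 0.02974 and 0.3531 CPM in the same hearts. Summed fibroblast markers (7 genes) were 1470 to 1550 CPM in control vector wild type, 1130 to 1410 in knockout and 1290 to 1380 CPM in knockout ND6 hearts with that vector, and overlapped between genotypes with the Ant1 vector. The part of these cell types in the carrier results was not tested.

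Slc25a4 itself was at 8464 to 11380 CPM in the 7 wild type hearts and at 0.219 to 2.03 CPM in the 6 knockout and knockout ND6 hearts with the control vector. It was at 174 to 241 CPM in the 4 knockout hearts with the Ant1 vector. Of the knockout ND6 hearts labelled Ant1 vector, heart 5 had 66.7 CPM and heart 37 had 55.6 CPM, but heart 8 had 0.732 CPM, the level of the control vector, against its label. Hearts 61 and 91 had 169 and 151 CPM. The hearts were run in 6 sets of library tables that split the groups unevenly, and no heart of the control vector groups shared a set with one of the Ant1 vector groups. Hearts 61 and 91, of conflicting labels, share a set with control vector hearts 70 and 22. Genotype differences are therefore also given within table sets where hearts share one, and differences between the vector groups cannot be told apart from the tables. The knockout ND6 hearts labelled Ant1 vector share no set with the Ant1 vector wild type hearts either. Differences between these groups have no value within a set, and genotype and table set cannot be told apart directly there.

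The promoter windows of carriers that rose in at least 2 of the 4 comparisons of an Ant1-null group with wild type are shown first, because these genes moved in 1 direction. Slc25a13, Slc25a28 and Slc25a39 are the ones printed, and Slc25a26 has no entry in the table. Each window runs from 250 bases before to 50 bases after the start that the RefSeq promoter table uses, 5′ to 3′ on the gene's strand in build GRCm38.p6, all on the minus strand. That start lies 131, 125 and 1158 bases inside the outermost RefSeq start of Slc25a13, Slc25a28 and Slc25a39, so the Slc25a39 window is wholly within the annotated gene. The windows are chr6:6217124-6217423 for Slc25a13, chr19:43674832-43675131 for Slc25a28 and chr11:102407468-102407767 for Slc25a39. Capitals mark exact matches on either strand to a CCAAT box (CCAAT), a GC box (GGGCGG) or an E-box (CACGTG), none of which overlap.
Slc25a13: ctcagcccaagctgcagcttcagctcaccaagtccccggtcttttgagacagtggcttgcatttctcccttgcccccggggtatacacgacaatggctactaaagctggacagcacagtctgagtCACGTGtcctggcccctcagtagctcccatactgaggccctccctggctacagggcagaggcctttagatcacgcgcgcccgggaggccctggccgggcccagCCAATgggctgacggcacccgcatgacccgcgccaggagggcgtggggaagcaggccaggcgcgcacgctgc
Slc25a28: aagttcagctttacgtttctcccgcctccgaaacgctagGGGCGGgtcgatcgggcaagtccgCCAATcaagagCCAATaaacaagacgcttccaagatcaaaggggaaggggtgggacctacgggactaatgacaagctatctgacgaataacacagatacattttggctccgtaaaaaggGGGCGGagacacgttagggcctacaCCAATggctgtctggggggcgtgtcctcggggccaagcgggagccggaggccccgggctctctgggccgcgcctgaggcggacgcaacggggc
Slc25a39: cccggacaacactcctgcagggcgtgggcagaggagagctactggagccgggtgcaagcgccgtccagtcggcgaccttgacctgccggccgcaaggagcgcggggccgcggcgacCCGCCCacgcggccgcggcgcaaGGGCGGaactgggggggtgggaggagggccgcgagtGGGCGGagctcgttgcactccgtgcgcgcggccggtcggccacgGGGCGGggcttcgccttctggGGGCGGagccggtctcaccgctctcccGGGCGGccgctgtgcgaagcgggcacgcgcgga

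The Slc25a13 window held 1 CCAAT and 1 CACGTG, the Slc25a28 window 3 CCAAT and 2 GGGCGG, and the Slc25a39 window 6 GGGCGG. The letters were not the same in all 3 windows, and each motif is common. CCAAT occurred in 37.4% of the 32851 windows of the RefSeq table, GGGCGG in 35.7% and CACGTG in 7.15%. Among the 44 windows of the 34 carriers found in that table, 20 held CCAAT, 35 held GGGCGG and 6 held CACGTG. As shares these are larger than over all windows, by most for GGGCGG, and the differences were not tested. Also searched on both strands were the NRF1 site, found in 0 of the 44 windows and 0.971% of all, and AAGGTCA, read by oestrogen-related receptors, found in 1 of the 44 and 4.72% of all. A match is only a run of letters and shows no binding.

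In control vector hearts, 5 of the 40 tested carriers rose in the knockout against wild type and 0 fell, where 14.4% of all tested genes passed, 8.19% higher and 6.23% lower. The median carrier had a log2 change of 0.15, against -0.03 over all tested genes. With the Ant1 vector, 4 carriers were higher and 2 lower in the knockout, where 9.89% of all genes passed (5.37% higher and 4.53% lower). The knockout ND6 hearts differed from wild type in 3 carriers with the control vector, 2 higher and 1 lower, where 12.7% of all genes passed (6.71% higher and 5.97% lower). With the Ant1 vector they differed in 6, 5 higher and 1 lower, where 19.5% of all genes passed (10.8% higher and 8.71% lower). The groups of this last comparison share no table set. Over all 13 Ant1-null hearts against the 7 wild type hearts, 6 carriers were higher and 3 lower, where 30.1% of all genes passed (15.6% higher and 14.5% lower). As shares of the 40 the calls made 12.5%, 15%, 7.5%, 15% and 22.5% in the same order, near or below the background except for the second. The adjusted p values behind these counts, and all that follow, come from edgeR's quasi-likelihood test with Benjamini-Hochberg adjustment over all tested genes.

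Slc25a13 passed in all 4 comparisons of a null group with wild type, and Slc25a26 in 3. Slc25a28, Slc25a29 and Slc25a39 passed in 2, another 7 carriers in 1, and 28 in 0. As shares of the carriers these are 2.5% in 4, 2.5% in 3, 7.5% in 2, 17.5% in 1 and 70% in 0, near the 3.35%, 3.36%, 7.48%, 18.1% and 67.8% of all tested genes. The 2 knockout comparisons have no heart in common, and 3 carriers passed in both, Slc25a13, Slc25a26 and Slc25a39, always higher. They are 60.0% of those called with the control vector and 50% of those called with the Ant1 vector, where the genes called in both were 31% and 45.1% of all genes called. The 2 knockout ND6 comparisons likewise share no heart, and Slc25a13 and Slc25a28 rose in both, 66.7% and 33.3% of the carriers called, against 56% and 36.5% over all genes.

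**Figure D1:**
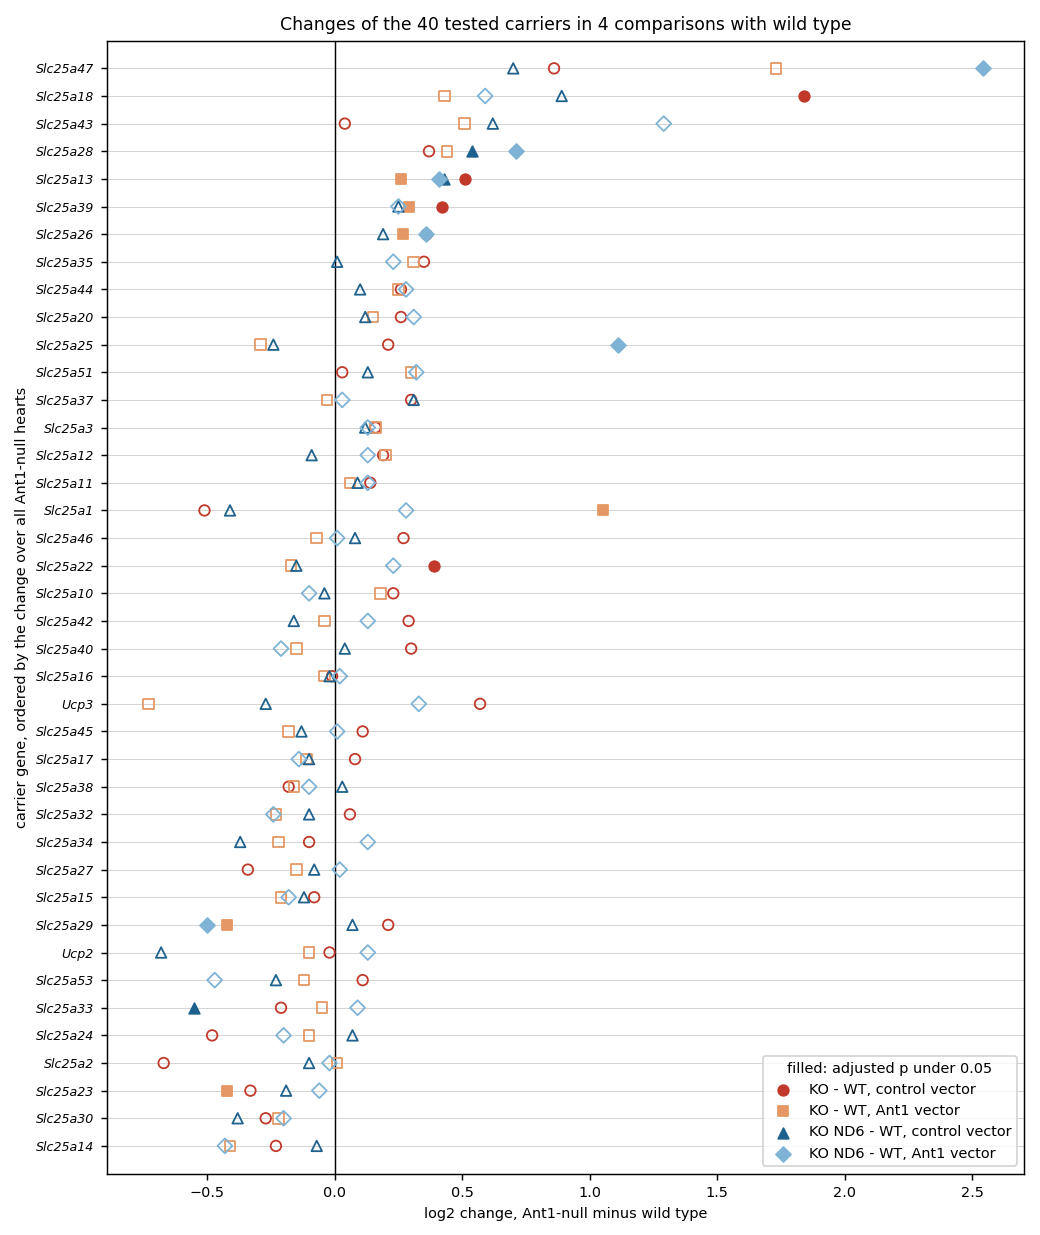
Log2 change of each of the 40 tested carriers (x axis) in the 4 comparisons of an Ant1-null group with wild type, ordered from top to bottom by the change over all Ant1-null hearts. Filled symbols passed adjusted p 0.05. Slc25a13 is filled in all 4 comparisons, and 28 carriers are open in all 4.

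Slc25a13 encodes citrin, an exchanger of aspartate for glutamate and part of the malate-aspartate shuttle. In wild type hearts it was at 112.7, 116.8, 111.9 and 108.3 CPM with the control vector and at 114.9, 118.0 and 114.3 CPM with the Ant1 vector. The knockout hearts had 172.0, 149.6 and 159.6 CPM with the control vector and 146.8, 131.3, 138.7 and 136.5 CPM with the Ant1 vector. In the knockout ND6 hearts it was at 139.1, 146.4 and 168.2 CPM with the control vector and at 164.2, 158.4 and 139.4 CPM with the Ant1 vector. All 13 Ant1-null hearts lay above all 7 wild type hearts, and it was the only 1 of the 40 tested carriers whose wild type and null hearts did not overlap, against 3.64% of all genes. With the control vector the log2 change was 0.51 (SE 0.08, adjusted p = 0.000135) in the knockout and 0.43 (SE 0.08, adjusted p = 0.00107) in the knockout ND6 hearts. It was 0.41 (SE 0.08, adjusted p = 0.00179) in the knockout ND6 and 0.26 (SE 0.08, adjusted p = 0.0428) in the knockout hearts with the Ant1 vector. The last call did not hold in 8 of 15 alternative settings, among them the fits without any 1 of wild type hearts 80, 81 or 83 or of knockout hearts 20, 22 or 27 (adjusted p 0.052 to 0.134). Within table sets the log2 difference from wild type was 0.60 for knockout heart 35, 0.34 for knockout heart 20 with the Ant1 vector and 0.64 for knockout ND6 heart 22, the 3 differences given as hearts 35, 20 and 22 for the other carriers.

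Slc25a12 encodes aralar, the other aspartate and glutamate exchanger of the shuttle. Its mean was 100.7 CPM ± 7.13 (SD, n = 4) in control vector wild type hearts and 115.0 ± 10.7 (SD, n = 3) in knockout hearts. Its log2 change there was 0.19 (95% confidence interval 0.01 to 0.37, adjusted p = 0.149), and over all Ant1-null hearts 0.11 (-0.01 to 0.22, adjusted p = 0.147). Slc25a11, the oxoglutarate carrier that completes the shuttle, had a mean of 970.2 CPM ± 77.6 (SD, n = 4) in control vector wild type hearts and 1069 ± 31.4 (SD, n = 3) in knockout hearts. Its log2 change over all Ant1-null hearts was 0.11 (0.01 to 0.20, adjusted p = 0.0827). Citrin, with 0.40 (0.30 to 0.51, adjusted p = 3.1e-06) over the same hearts, was the shuttle carrier that passed. The difference between the carriers was not tested.

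Of the enzymes that work beside the carriers, Got1, the cytosolic aspartate aminotransferase of the shuttle, rose in knockout hearts by a log2 change of 0.60 (SE 0.09, adjusted p = 6.3e-05) with the control vector and 0.46 (SE 0.09, adjusted p = 0.00174) with the Ant1 vector. In control vector hearts it was lower in knockout ND6 than in knockout hearts, by a log2 change of -0.55 (SE 0.09, adjusted p = 0.00525). Ckmt2, the mitochondrial creatine kinase of muscle, rose by 0.52 (SE 0.09, adjusted p = 0.000408) in control vector knockout hearts. Of the 8 enzymes measured, 2 passed in that comparison, 0 in control vector knockout ND6 hearts and 1 in Ant1 vector knockout hearts, where 14.4%, 12.7% and 9.89% of all genes passed.

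Slc25a26 carries S-adenosylmethionine, the methyl donor, into the matrix. Its wild type hearts had 54.82, 51.16, 50.65 and 48.2 CPM with the control vector and 49.31, 47.65 and 47.63 CPM with the Ant1 vector. The knockout hearts had 64.61, 69.33 and 63.27 CPM with the control vector and 57.24, 62.06, 59.8 and 54.16 CPM with the Ant1 vector. The knockout ND6 hearts had 55.25, 60.31 and 59.74 CPM with the control vector and 64.25, 63.58 and 57.41 CPM with the Ant1 vector. Of the 13 Ant1-null hearts, 12 lay above every wild type heart, the exception being knockout heart 27. The log2 change was 0.36 (SE 0.07, adjusted p = 0.00155) in control vector knockout hearts, and 0.27 (SE 0.07, adjusted p = 0.019) in knockout and 0.36 (SE 0.08, adjusted p = 0.00269) in knockout ND6 hearts with the Ant1 vector. It was 0.19 (95% confidence interval 0.04 to 0.34, adjusted p = 0.0856) in control vector knockout ND6 hearts. With the table set as a covariate both Ant1 vector calls were lost (adjusted p = 0.132 and 0.0936). Knockout heart 20 is the only null heart in the table set of these wild type hearts, so for this vector that fit rests on it. The knockout call was also lost without knockout heart 21 or 22 or wild type heart 81 or 83 (adjusted p 0.0502 to 0.0752). Its differences within table sets were 0.31, 0.25 and 0.31 for hearts 35, 20 and 22.

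Among the other carriers of nucleotides and cofactors, Slc25a33, which carries pyrimidine nucleotides, fell in control vector knockout ND6 hearts by a log2 change of -0.55 (SE 0.16, adjusted p = 0.0262). Its wild type hearts had 15.19, 21.74, 18.11 and 26.45 CPM, and its knockout ND6 hearts 12.97, 13.26 and 15.42 CPM. The groups overlapped, and the call was lost without wild type heart 24 or 70 or knockout ND6 heart 20 or 21 (adjusted p 0.0577 to 0.103) and with only the compared groups in the fit (adjusted p = 0.0552). Slc25a16, Slc25a17, Slc25a32 and Slc25a51, the last a carrier of NAD, passed in none of the comparisons.

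Slc25a39 is needed for the import of glutathione into mitochondria. In wild type hearts it was at 244.5, 250.1, 238.2 and 182.0 CPM with the control vector and at 202.0, 195.9 and 222.9 CPM with the Ant1 vector. The knockout hearts had 289.4, 299.3 and 331.1 CPM with the control vector and 264.4, 252.0, 247.3 and 250.9 CPM with the Ant1 vector. The knockout ND6 hearts had 272.9, 288.5 and 256.5 CPM with the control vector and 250.2, 235.7 and 254.0 CPM with the Ant1 vector. Under each vector the null hearts lay above the wild type hearts, but the wild type hearts with the control vector reached into the range of the null hearts with the Ant1 vector. The log2 change was 0.42 (SE 0.09, adjusted p = 0.0031) in control vector knockout hearts and 0.31 (SE 0.06, adjusted p = 0.000354) over all Ant1-null hearts. In Ant1 vector knockout hearts it was 0.29 (SE 0.09, adjusted p = 0.0456), a call that did not hold in 12 of 15 alternatives, among them the fit without any 1 of the 7 hearts compared (adjusted p 0.055 to 0.163). In knockout ND6 hearts it was 0.25 with either vector, with a 95% confidence interval of 0.06 to 0.44 and adjusted p = 0.0715 for the control vector. Within table sets the differences were 0.24, 0.35 and 0.50 for hearts 35, 20 and 22. Slc25a40, its close relative, had a log2 change of 0.30 in control vector knockout hearts and passed in none of the comparisons.

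Slc25a28 encodes mitoferrin 2, which brings iron into mitochondria of cells other than red cell precursors. Its wild type hearts had 11.73, 10.8, 11.46 and 12.16 CPM with the control vector and 12.47, 12.1 and 12.91 CPM with the Ant1 vector. Knockout hearts had 18.01, 12.38 and 14.45 CPM with the control vector and 15.99, 18.82, 19.17 and 14.05 CPM with the Ant1 vector. Knockout ND6 hearts had 14.36, 17.38 and 18.73 CPM with the control vector and 25.15, 20.05 and 16.26 CPM with the Ant1 vector. Of the 13 null hearts, 12 lay above every wild type heart, and the null hearts spread more widely than the wild type hearts. The log2 change passed in knockout ND6 hearts, at 0.54 (SE 0.14, adjusted p = 0.0147) with the control vector and 0.71 (SE 0.15, adjusted p = 0.00287) with the Ant1 vector. In knockout hearts it was 0.37 (95% confidence interval 0.08 to 0.67, adjusted p = 0.0858) and 0.44 (0.14 to 0.74, adjusted p = 0.0583). Over all null hearts it was 0.52 (SE 0.09, adjusted p = 0.000195). The control vector call was lost without knockout ND6 heart 21 or 22 (adjusted p = 0.06 and 0.0997), and the Ant1 vector call with single libraries and their table as a covariate (adjusted p = 0.101). Within table sets the differences were 0.67, 0.36 and 0.62 for hearts 35, 20 and 22. Knockout ND6 and knockout hearts with the control vector differed by 0.17 (-0.15 to 0.49, adjusted p = 0.668).

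Slc25a37 encodes mitoferrin 1, which supplies iron to red cell precursors. It passed in none of the comparisons and varied within groups instead. The knockout hearts with the Ant1 vector had 35.9, 16.84, 14.38 and 22.47 CPM, and the knockout ND6 hearts with the control vector 17.35, 20.16 and 32.91 CPM. Its highest hearts were 91, 37, 20 (knockout), 22 (knockout ND6) and 35, at 30.42 to 39.26 CPM. Summed erythroid markers (Alas2 and Slc4a1) in these hearts were 195 to 275 CPM. The group ranges of that sum were 90.7 to 155 CPM in control vector wild type, 141 to 198 in Ant1 vector wild type, 98 to 196 in control vector knockout, 94.1 to 231 in Ant1 vector knockout, 131 to 210 in control vector knockout ND6 and 71.3 to 195 CPM in Ant1 vector knockout ND6 hearts. Wild type heart 80 had a sum of 198 CPM with Slc25a37 at 21.89 CPM. The part of blood cells in the Slc25a37 level was not tested.

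**Figure D2:**
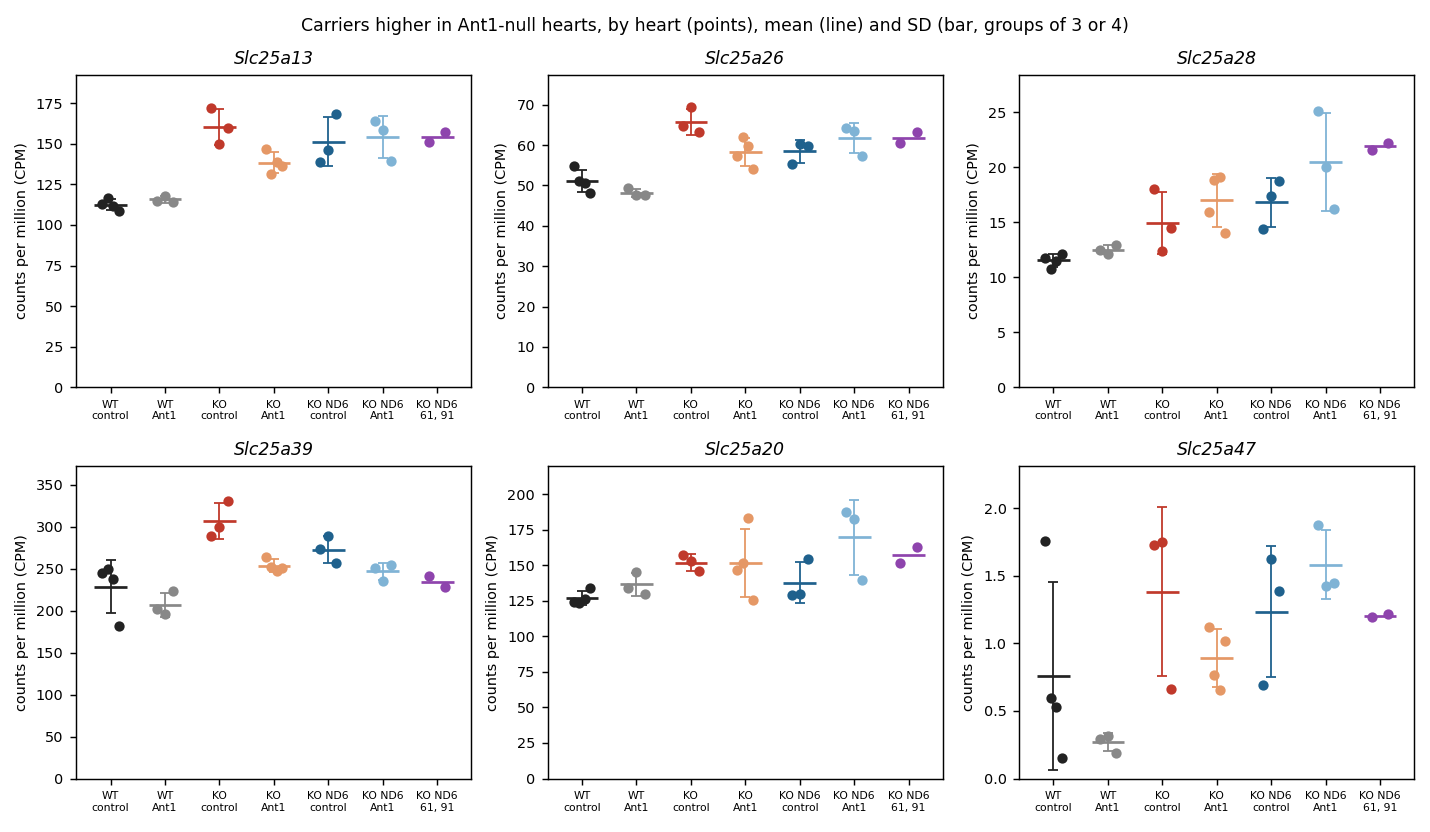
Level (CPM, linear axis from 0) of the 6 carriers that were higher over all Ant1-null hearts, with each heart as a point, the group mean as a line and the SD as a bar for groups of 3 or 4 hearts. For Slc25a13 all Ant1-null hearts lie above all wild type hearts, and hearts 61 and 91 lie with the null hearts.

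Slc25a20, the carnitine and acylcarnitine carrier of fatty acid import, rose over all Ant1-null hearts by a log2 change of 0.21 (SE 0.07, adjusted p = 0.0252) and passed in no single comparison with wild type. Its wild type hearts lay between 123.2 and 145.2 CPM and its null hearts between 125.5 and 187.4 CPM, with 9 of the 13 null hearts above every wild type heart. Without wild type heart 80 or 83 the call was lost (adjusted p = 0.0579 and 0.073). Within table sets the differences were 0.34, 0.10 and 0.21 for hearts 35, 20 and 22. Cpt1a, the outer membrane acyltransferase of the same route, rose with the Ant1 vector in knockout ND6 hearts, by a log2 change of 0.65 (SE 0.14, adjusted p = 0.0157).

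Slc25a22 and Slc25a18 carry glutamate. Slc25a22 had 96.12, 89.91, 100.7 and 88.58 CPM in control vector wild type hearts, 117.7, 136.3 and 114.2 CPM in knockout hearts and 74.14, 94.38 and 85.12 CPM in knockout ND6 hearts. With the Ant1 vector the values were 114.6, 97.37 and 107.1 CPM in wild type, 85.68, 99.15, 103.9 and 89.18 CPM in knockout and 145.2, 108.0 and 120.0 CPM in knockout ND6 hearts. Thus it was high in knockout hearts with the control vector and in knockout ND6 hearts with the Ant1 vector. In control vector hearts it rose in the knockout by a log2 change of 0.39 (SE 0.12, adjusted p = 0.0287) and was lower in knockout ND6 than in knockout hearts by -0.54 (SE 0.13, adjusted p = 0.0379). The latter was the only carrier called between these 2 genotypes, where 1.06% of all genes passed and 0.519% were lower. Between vectors it rose in knockout ND6 hearts by 0.56 (SE 0.13, adjusted p = 0.0225). All 3 calls turned on single hearts. The knockout call was lost without heart 35, 36, 24 or 70 (adjusted p 0.0503 to 0.145), the ND6 call without any 1 of knockout hearts 35, 36 and 38 or knockout ND6 hearts 20 and 22 (0.0767 to 0.178), and the vector call without knockout ND6 heart 5, 20 or 22 (0.0614 to 0.122). Within table sets the difference between knockout ND6 and knockout hearts was -0.57 with the control vector, and 0.32 and 0.43 in the 2 sets that hold hearts with the Ant1 vector.

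Slc25a18 was close to the limit of detection, with 1 to 23 counts in a heart. Control vector knockout hearts had 0.752, 0.455 and 0.430 CPM and wild type hearts 0.0893, 0.179, 0.206 and 0.124 CPM, without overlap. The log2 change was 1.84 (SE 0.53, adjusted p = 0.0223), and the call was lost without knockout heart 35 (adjusted p = 0.105) or wild type heart 23 (adjusted p = 0.0586).

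Slc25a29 carries basic amino acids. It was at 20.01, 20.71 and 19.05 CPM in wild type hearts with the Ant1 vector, at 14.41, 14.94, 14.13 and 16.01 CPM in knockout and at 13.4, 13.06 and 15.69 CPM in knockout ND6 hearts with that vector. With the control vector the knockout hearts had 19.61, 19.27 and 22.91 CPM, the knockout ND6 hearts 20.25, 17.95 and 17.81 CPM and the wild type hearts 21.17, 17.85, 15.67 and 16.49 CPM. The null hearts with the Ant1 vector were thus low, and those with the control vector overlapped wild type or lay above part of it. Against Ant1 vector wild type hearts it fell by a log2 change of -0.42 (SE 0.10, adjusted p = 0.0127) in knockout and -0.50 (SE 0.11, adjusted p = 0.00343) in knockout ND6 hearts, and between vectors in knockout hearts by -0.47 (SE 0.10, adjusted p = 0.0133). With the table set as a covariate the 2 genotype calls had adjusted p = 0.0763 and 0.066. The vector call was lost without knockout heart 38 (adjusted p = 0.0861). Within the table set of the Ant1 vector wild type hearts, knockout heart 20 differed by -0.47.

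Slc25a47, known chiefly from liver, rose over all null hearts by a log2 change of 1.46 (SE 0.35, adjusted p = 0.00291) and in Ant1 vector knockout ND6 hearts by 2.54 (SE 0.60, adjusted p = 0.00529). Its levels were low throughout. Wild type hearts had 1.76, 0.595, 0.529 and 0.155 CPM with the control vector and 0.294, 0.318 and 0.192 CPM with the Ant1 vector. Knockout hearts had 1.73, 1.75 and 0.661 CPM with the control vector and 1.12, 0.769, 0.657 and 1.02 CPM with the Ant1 vector, and knockout ND6 hearts 0.695, 1.63 and 1.39 CPM and 1.88, 1.43 and 1.45 CPM. Wild type heart 23 stood apart from the other wild type hearts, and it also had the highest sum of liver markers, 193 CPM, with 15.3 and 13.1 CPM in wild type hearts 24 and 25. In the groups other than control vector wild type that sum (5 of 6 listed genes on the panel) was between 0.381 and 2.76 CPM, and Cps1 was at 0 in all 3 wild type hearts with the Ant1 vector. The part of liver RNA in the level of heart 23 was not tested. Without heart 23 the change over all null hearts was 1.87 (adjusted p = 7e-05), and both calls held in every alternative setting.

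The other amino acid carriers, Slc25a2, Slc25a15, Slc25a38, Slc25a44 and Slc25a45, passed in none of the comparisons. Slc25a38, the glycine carrier used in haem synthesis, stayed between 27.39 and 37.48 CPM in the wild type and null hearts.

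Slc25a3, the phosphate carrier, supplies the other substrate of ATP synthesis beside ADP. Its wild type hearts had 2808, 2731, 2653 and 2033 CPM with the control vector and 2552, 2402 and 2492 CPM with the Ant1 vector. The knockout hearts had 2884, 2780.0 and 2919 CPM with the control vector and 3015, 2838, 2946 and 2322 CPM with the Ant1 vector. The knockout ND6 hearts had 2761, 2898 and 2680.0 CPM and 3036, 2761 and 2330.0 CPM. The groups overlapped, and 7 of the 13 null hearts lay above every wild type heart. The log2 change over all null hearts was 0.14 (95% confidence interval 0.01 to 0.28, adjusted p = 0.102), and in the 4 separate comparisons it lay between 0.12 and 0.16 without passing.

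Slc25a23, Slc25a24, Slc25a25 and Slc25a41 are carriers of ATP-Mg and phosphate, which change the size of the adenine nucleotide pool in the matrix, and Slc25a42 brings in coenzyme A in exchange for adenine nucleotides. Slc25a23 fell in Ant1 vector knockout hearts, with 30.23, 38.19, 37.09 and 32.8 CPM against 48.13, 42.22 and 48.71 CPM in wild type hearts, a log2 change of -0.42 (SE 0.12, adjusted p = 0.0328). Over all null hearts the change was -0.25 (SE 0.08, adjusted p = 0.0165), with wild type hearts from 30.51 to 48.71 CPM and null hearts from 30.23 to 48.54 CPM overlapping almost wholly. The first call was lost without knockout heart 20 or 27 or wild type heart 80 or 83 (adjusted p 0.0607 to 0.127), and the second without wild type heart 83 (adjusted p = 0.0513) and with hearts 61 and 91 in the control vector group (adjusted p = 0.0559). Hearts of the same table sets differed by -0.20, -0.62 and -0.41 for hearts 35, 20 and 22.

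Slc25a24 had 4.54, 4.29 and 4.56 CPM in control vector knockout hearts, below the 6.10, 6.04, 7.23 and 5.51 CPM of the wild type hearts. The log2 change was -0.48 (95% confidence interval -0.85 to -0.11, adjusted p = 0.0765), and over all null hearts -0.18 (-0.40 to 0.05, adjusted p = 0.233).

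Slc25a25 had 1.668, 1.398, 1.734 and 4.27 CPM in wild type, 3.007, 2.209 and 2.611 CPM in knockout and 1.844, 1.688 and 2.207 CPM in knockout ND6 hearts with the control vector. With the Ant1 vector it had 2.883, 2.668 and 3.611 CPM in wild type, 1.924, 2.197, 3.03 and 2.826 CPM in knockout and 7.548, 6.109 and 6.115 CPM in knockout ND6 hearts. The 3 knockout ND6 hearts labelled Ant1 vector lay above every other heart, heart 8 among them, although its Slc25a4 was at the control level. The log2 change between vectors in knockout ND6 hearts was 1.78 (SE 0.30, adjusted p = 0.00242), a call that held without heart 8 (adjusted p = 0.0077). In the same comparison the summed endothelial markers (5 genes) were at 543 to 640 CPM with the Ant1 vector and 423 to 468 CPM with the control vector, and their part in the result was not tested. Against Ant1 vector wild type hearts the change was 1.11 (SE 0.29, adjusted p = 0.0115). That call was lost with the table set as a covariate, where it was 0.62 (adjusted p = 0.351), and without wild type heart 81 (adjusted p = 0.052). The knockout ND6 hearts exceeded the knockout hearts of the same table sets by 1.39 (hearts 5 and 8) and 1.11 (heart 37). Hearts 61 and 91 had 2.14 and 1.85 CPM, with Slc25a4 at 169 and 151 CPM.

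Slc25a42 lies at chr8:70184340-70212281 in GRCm38.p6, on the chromosome of Slc25a4 (chr8:46207168-46211062). So does Slc25a15 (chr8:22375550-22398621), which passed in none of the comparisons. Its log2 changes in the 4 comparisons of a null group with wild type lay between -0.21 and -0.08. Slc25a42 had 192.9, 172.5 and 180.4 CPM in control vector knockout hearts and 114.9, 122.5, 127.7 and 162.5 CPM in knockout hearts with the Ant1 vector, without overlap. The log2 change between vectors was -0.46 (SE 0.12, adjusted p = 0.0278), and the call was lost without any 1 of hearts 35, 36, 38, 20, 21 and 22 (adjusted p 0.0614 to 0.093). Against wild type it changed by 0.29 (95% confidence interval 0.04 to 0.54, adjusted p = 0.108) with the control vector. Of the 5 tested carriers of adenine nucleotides or phosphate, 0 passed in either control vector comparison with wild type, 1 was lower in Ant1 vector knockout hearts and 1 higher in Ant1 vector knockout ND6 hearts. Of all tested genes, 14.4% passed in knockout and 12.7% in knockout ND6 hearts with the control vector. With the Ant1 vector 9.89% and 19.5% passed. In a list of 5 genes such counts cannot be told apart from these shares. At an unadjusted p under 0.05, Slc25a23, Slc25a24 and Slc25a42 were among those that differed in control vector knockout hearts (p = 0.0159, 0.0136 and 0.0229), 17 of the 40 carriers in all, or 42.5%, against 28.5% of all genes. Slc25a5, the second translocator of ADP and ATP in mouse heart, had no amplicon under that symbol on the panel, so its level was not measured.

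**Figure D3:**
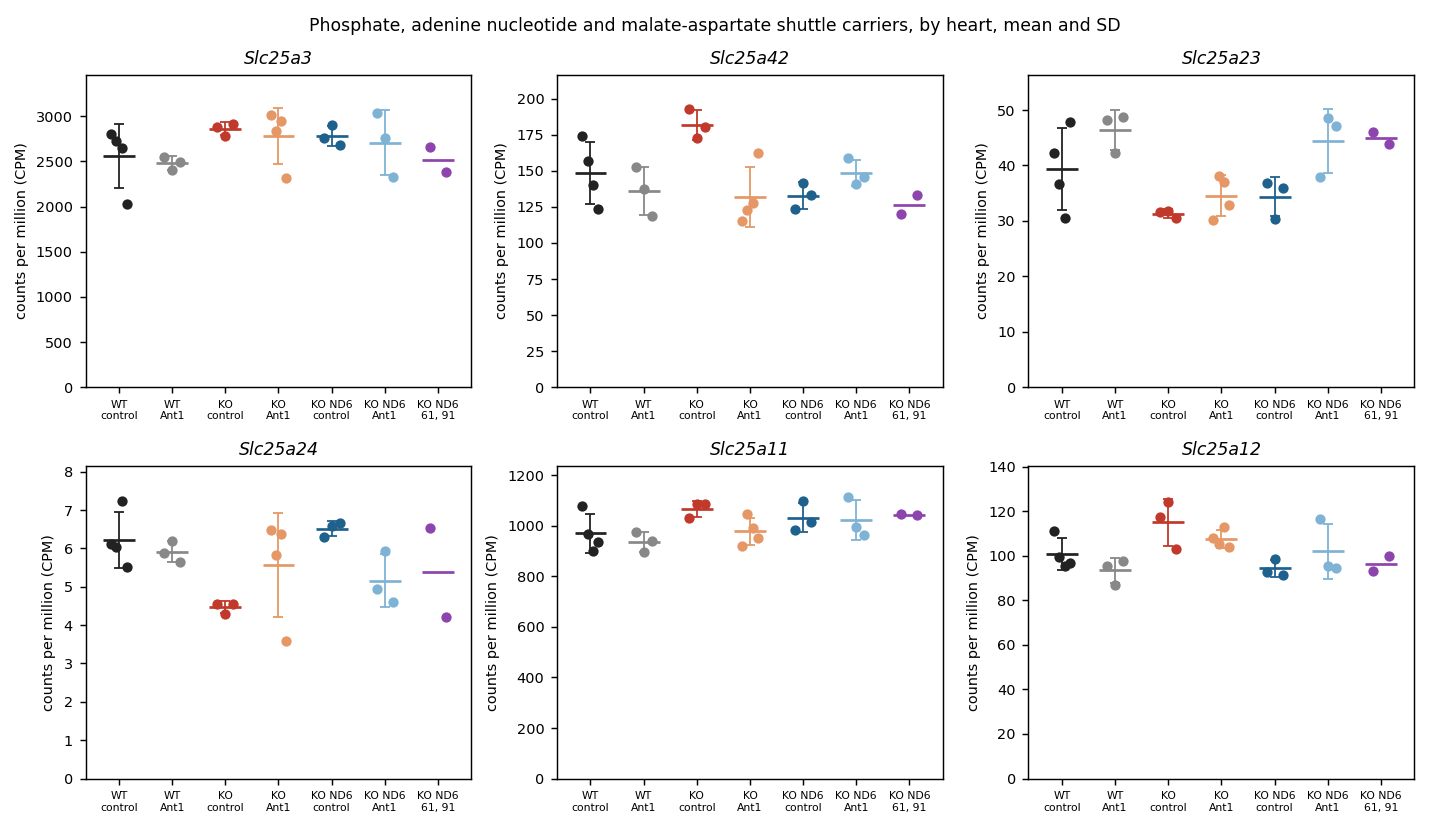
Level (CPM, linear axis from 0) of the phosphate carrier Slc25a3, the adenine nucleotide carriers Slc25a42, Slc25a23 and Slc25a24, and the shuttle carriers Slc25a11 and Slc25a12, with each heart as a point, the group mean as a line and the SD as a bar for groups of 3 or 4 hearts. In Slc25a3, Slc25a11 and Slc25a12 the wild type and null hearts overlap.

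The 5 tested carriers of keto acids, dicarboxylates and citrate gave 1 call in the 4 comparisons of a null group with wild type. In the comparison that gave it 9.89% of all genes passed. Slc25a1, the citrate carrier, was higher in Ant1 vector knockout hearts by a log2 change of 1.05 (SE 0.30, adjusted p = 0.031). The knockout hearts had 5.633, 13.51, 13.84 and 18.46 CPM and the wild type hearts 6.649, 5.273 and 6.838 CPM, so knockout heart 20, the one that shares library tables with the wild type hearts, lay among them. With the table set as a covariate the change was -0.14 (adjusted p = 0.851), and the call was also lost without knockout heart 21, 22 or 27 or any 1 wild type heart (adjusted p 0.0586 to 0.12). In the control vector wild type hearts it was at 9.231, 6.841, 13.7 and 16.58 CPM. Summed adipocyte markers (5 of 5 genes on the panel) were 64.5, 57.4 and 92.1 CPM in knockout hearts 21, 22 and 27 and 11.6 CPM in heart 20, and 80 and 132 CPM in wild type hearts 25 and 70 against 19.3 and 19 CPM in hearts 23 and 24. The ranges of that sum were 13.1 to 25.7 CPM in Ant1 vector wild type, 22.8 to 28.4 in control vector knockout, 15.9 to 52.8 in control vector knockout ND6 and 2.47 to 19.2 CPM in Ant1 vector knockout ND6 hearts, with Lep at 0 in heart 8. Their part in the Slc25a1 result was not tested. Slc25a10, Slc25a34 and Slc25a35 passed in none of the comparisons, and Slc25a34 ran from 128.0 to 223.5 CPM over the wild type and null hearts.

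In the uncoupling protein branch Slc25a14 and Slc25a30 were lower over all null hearts, by log2 changes of -0.28 (SE 0.10, adjusted p = 0.0331) and -0.27 (SE 0.09, adjusted p = 0.0219), and neither passed in a single comparison. Slc25a14 had wild type hearts from 5.043 to 7.473 CPM and null hearts from 3.607 to 6.149 CPM, with 7 of 13 null hearts below every wild type heart. With the table set as a covariate it had adjusted p = 0.324, and knockout ND6 heart 22 was above the wild type heart of its tables by 0.28. The call was also lost without any 1 of hearts 8, 20 (knockout ND6), 35, 80, 24 and 25 (adjusted p 0.0516 to 0.127). Slc25a30 ran from 24.48 to 36.56 CPM in wild type hearts and from 21.16 to 32.5 CPM in null hearts. With the table set as a covariate its change was -0.06 (adjusted p = 0.729), and the call was lost without wild type heart 81 or 25 (adjusted p = 0.0744 and 0.0505).

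Ucp3, the uncoupling protein of muscle, differed widely between hearts. With the control vector it had 97.55, 118.9, 153.4 and 120.5 CPM in wild type, 226.7, 185.5 and 133.6 CPM in knockout and 80.03, 109.8 and 114.7 CPM in knockout ND6 hearts. With the Ant1 vector it had 194.0, 134.0 and 161.5 CPM in wild type, 71.9, 67.48, 90.06 and 163.3 CPM in knockout and 260.8, 196.6 and 156.8 CPM in knockout ND6 hearts. The null groups were thus high or low depending on vector and genotype, and the change over all null hearts was -0.03 (95% confidence interval -0.35 to 0.30, adjusted p = 0.923). Between vectors it fell in knockout hearts by a log2 change of -0.89 (SE 0.25, adjusted p = 0.0427), with overlap, and the call was lost without any 1 of hearts 35, 36, 38, 20, 21 and 22 (adjusted p 0.0506 to 0.167). The difference between the knockout changes under the 2 vectors was -1.30 (-2.04 to -0.56, adjusted p = 0.0933). Ucp2, found in many cell types, ran from 197.0 to 346.1 CPM in wild type and from 154.5 to 449.3 CPM in null hearts and changed by -0.17 (-0.48 to 0.15, adjusted p = 0.449). Slc25a27 passed in none of the comparisons.

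**Figure D4:**
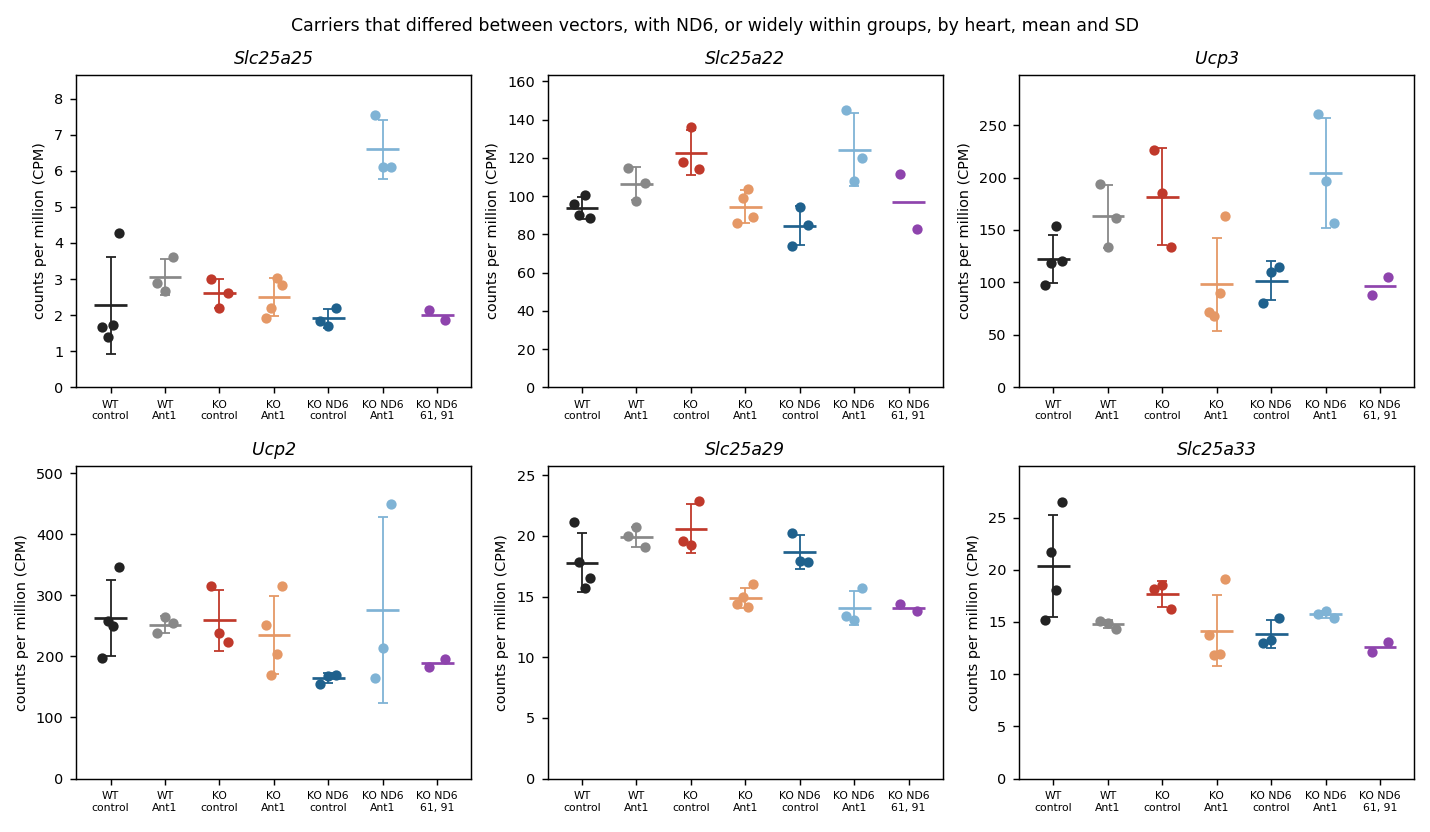
Level (CPM, linear axis from 0) of 6 carriers that differed between vectors or between knockout and knockout ND6 hearts, or varied widely, with each heart as a point, the group mean as a line and the SD as a bar for groups of 3 or 4 hearts. Slc25a25 is highest in the 3 knockout ND6 hearts labelled Ant1 vector, and Ucp3 spans 67.48 to 163.3 CPM within the knockout hearts with that vector.

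The Ant1 vector and control vector groups share no library table, so vector and table cannot be told apart in what follows. In knockout hearts 3 carriers differed between them, Slc25a29, Slc25a42 and Ucp3. All were lower with the Ant1 vector, where 5.47% of all genes passed and 3.27% were lower. With only these 2 groups in the fit all 3 calls were lost (adjusted p = 0.0529, 0.0722 and 0.112), and DESeq2 called 8 carriers, where it called 11.1% of all genes. The summed endothelial markers were at 503 to 532 CPM with the Ant1 vector and 403 to 416 CPM with the control vector in these hearts, and their part in the result was not tested. In knockout ND6 hearts Slc25a22 and Slc25a25 differed, both higher with the Ant1 vector, where 2.53% of all genes passed and 1.75% were higher. In wild type hearts edgeR called 0 carriers, where 0.117% of all genes passed, 4 carriers (10%) had an unadjusted p under 0.05 against 11.7% of all genes, and DESeq2 called 0 carriers and 0.987% of all genes. The 4 carriers that rose most often with Ant1 loss were not called between vectors. In knockout hearts the vector differences were -0.21 for Slc25a13 (95% confidence interval -0.38 to -0.05, adjusted p = 0.111), -0.17 for Slc25a26 (-0.32 to -0.02, adjusted p = 0.156), -0.27 for Slc25a39 (-0.46 to -0.08, adjusted p = 0.0788) and 0.18 for Slc25a28 (-0.11 to 0.48, adjusted p = 0.489). In knockout ND6 hearts the same 4 had differences between -0.14 and 0.28 without a call. The genotype change differed between vectors for 0 carriers by edgeR in the knockout, where 0.500% of all genes passed, and for 0 in the knockout ND6 hearts, where 0.273% passed. In each case 7 carriers (17.5%) had an unadjusted p under 0.05, against 14.7% and 10.5% of all genes, and DESeq2 called 3 and 1 carriers, against 2.77% and 1.27% of all genes. Within their shared table set, hearts 61 and 91 differed from knockout ND6 heart 22 by 0.19 for Slc25a22 and -0.15 for Slc25a25. Slc25a29, called between vectors in knockout hearts, was at 14.39 and 13.78 CPM in hearts 61 and 91 and 17.81 CPM in heart 22. Its knockout ND6 groups ran from 13.06 to 15.69 CPM with the Ant1 vector and from 17.81 to 20.25 CPM with the control vector. Slc25a42 was at 119.9 and 132.9 CPM against 132.9 CPM, and Ucp3 at 87.68 and 105.1 CPM against 114.7 CPM.

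**Figure D5:**
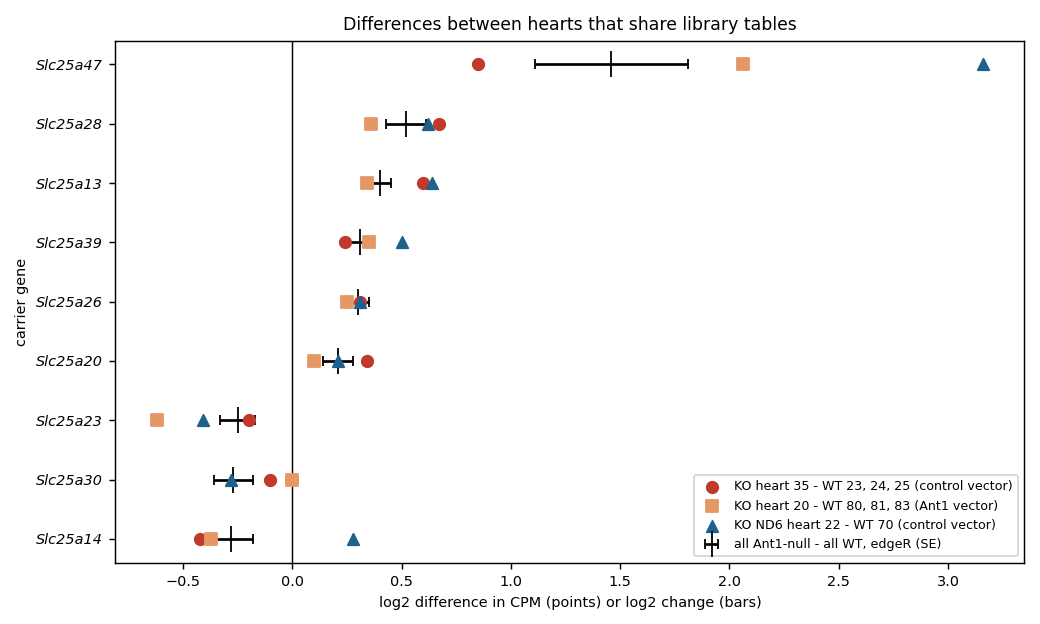
Log2 difference in CPM (points, x axis) between Ant1-null hearts and the wild type hearts of the same library tables, for the 9 carriers called over all hearts, beside the edgeR log2 change of all Ant1-null against all wild type hearts with its SE (bars). For the 6 carriers called higher all points lie above 0, and for Slc25a14 the point of knockout ND6 heart 22 lies above 0. Each point is 1 null heart, and heart 22 is set against 1 wild type heart. These hearts also entered the test that chose the 9 carriers, so the points are no separate test.

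Carriers reach the inner membrane through a route of their own, in which the receptor Tomm70a, the small Timm chaperones and the Timm22 complex pass them on. Of its 6 measured genes, 5 rose in control vector knockout hearts, with log2 changes of 0.50 for Tomm70a (adjusted p = 0.00384), 0.61 for Timm10 (adjusted p = 0.00852), 0.35 for Timm9 (adjusted p = 0.0373), 0.35 for Timm22 (adjusted p = 0.0256) and 0.34 for Timm8b (adjusted p = 0.0206). Their median change was 0.35, against -0.03 over all genes, of which 8.19% were called higher. In control vector knockout ND6 hearts 1 rose, Timm9, in Ant1 vector knockout hearts 2, Timm8b and Timm22, and in Ant1 vector knockout ND6 hearts 0, where 6.71%, 5.37% and 10.8% of all genes were higher. Tomm70a was lower with the Ant1 vector in knockout hearts, by -0.42 (SE 0.11, adjusted p = 0.0307).

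Of 12 other mitochondrial transport proteins, 2 were higher and 0 lower in control vector knockout hearts, where 14.4% of all genes passed. In control vector knockout ND6, Ant1 vector knockout and Ant1 vector knockout ND6 hearts 1 was higher and 1 lower each. There 12.7%, 9.89% and 19.5% of all genes passed. Letm1, a cation exchanger, rose in all 4 comparisons with wild type, by log2 changes of 0.56, 0.42, 0.38 and 0.70 (adjusted p 9.35e-05 to 0.0156). Of all tested genes, 3.35% passed in all 4. Sfxn2, a sideroflexin, fell in 3, by -0.63, -0.62 and -0.50 (adjusted p 0.0116 to 0.0415). Mtch2, a relative of the carriers that sits in the outer membrane, rose in control vector knockout hearts by 0.39 (SE 0.13, adjusted p = 0.0405). Vdac1, the main channel of the outer membrane, rose in knockout ND6 hearts, by 0.28 (SE 0.09, adjusted p = 0.0393) with the control vector and 0.48 (SE 0.09, adjusted p = 0.00115) with the Ant1 vector.

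The carriers with few counts add little. Slc25a43 had 151 counts and Slc25a53 383 counts over all hearts, and neither was called. Slc25a21, Slc25a41, Slc25a48 and Slc25a54 were below the filter, with 110, 21, 76 and 2 counts over all hearts, and Slc25a54 was at 0 in 20 of 22 hearts. A carrier with 0 counts in all hearts together could still have had up to 0.00425 CPM (3 counts of the summed total), a limit that covers counting error only. Slc25a46, a protein of the outer membrane, passed in none of the comparisons. In all, 17 of the 40 tested carriers passed in at least 1 of the 11 comparisons, 42.5% against 40.6% of all tested genes, and 23 in none, the latter with changes over all null hearts between -0.19 and 0.61.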

How the data were processed

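Heart RNA was counted on an AmpliSeq mouse transcriptome panel with Ion Torrent sequencing. The deposited values are raw counts, whole numbers of reads for each amplicon, which the authors made with build mm10 per the submitters' processing notes. The aligner, counter and filters were not given in the sources used here. Of 115 samples, the 112 bulk libraries in 14 tables were read, with the 3 samples of single nuclei not analysed here. Symbols turned into dates were restored for 27 amplicons. Libraries had 2893780 to 8531273 counts. Those with the same title number, genotype and title code were summed as 1 heart, which is a reading of the labels. Libraries 80a and 80b, with conflicting vector labels, were left out.

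Counts per heart were fitted once for all 7 groups in edgeR 4.0.16 (under R 4.3.3) with TMM scaling (factors 0.959 to 1.06), filterByExpr and the quasi-likelihood F-test, without covariates. P values were adjusted by Benjamini-Hochberg over 15403 genes, with 0.05 as the threshold. Intervals are 95% and, like limits from 3 counts, cover no error beyond the fit or the counting. The common biological coefficient of variation was 0.159. CPM values use TMM-scaled totals, and the test was tested on simulated data.

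A carrier and a marker gene that are not reported here stayed in the fit but enter no count of carriers or sum of markers. The carriers, the role lists, the other genes of the pathway and the naming rule were chosen with earlier results of these data known. Named are all members past the threshold, the carriers of adenine nucleotides or phosphate, the shuttle and carnitine carriers, Ucp2 and Ucp3, and the 10 members of highest level in control vector wild type hearts. Gene places and promoters come from RefSeq (GRCm38.p6), where 44 of 44 members matched by symbol in the gene table and 34 in the promoter table. Alternatives were DESeq2 1.42.0, size factors of the RLE kind, no filter on low counts, only the compared groups, limma voom 3.58.1 on single libraries with the table as covariate (within-heart correlation 0.197), hearts 61 and 91 as control vector, 80a and 80b added, heart 8 left out and each heart left out. The table set as covariate and hearts 27 and 37 left out were added after seeing the data.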

Additional observations from a re-analysis of the deposited data

Results flagged for a closer look

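Among the 46 combinations of carrier and group looked at for single hearts far from the rest of a group of 4, 2 stood out, where chance flags about 1 in 20. Slc25a25 was at 4.27 CPM in wild type heart 70, against 1.398 to 1.734 CPM in the other control vector wild type hearts. Heart 70 was also the wild type heart run in other library tables than hearts 23, 24 and 25. Slc25a34 was at 215.7 CPM in knockout heart 27 with the Ant1 vector, against 128.0 to 135.0 CPM in hearts 20, 21 and 22 of that group.

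Knockout ND6 hearts 61 and 91, which entered no comparison because their labels conflict, lay above all 7 wild type hearts in 4 of the 6 carriers called higher over all null hearts. How many of all genes called higher did so was not counted, so the 4 of 6 cannot be set against a background. Slc25a13 was at 151.1 and 157.4 CPM in them, against at most 118.0 CPM in wild type. Slc25a20 was at 151.5 and 162.7 CPM, against at most 145.2 CPM. Slc25a26 was at 60.49 and 63.23 CPM, against at most 54.82 CPM. Slc25a28 was at 21.59 and 22.25 CPM, against at most 12.91 CPM. Slc25a39, at 240.7 and 228.5 CPM, and Slc25a47, at 1.194 and 1.215 CPM, lay within the range of the wild type hearts. Against wild type heart 70, run in the same tables, the log2 differences of Slc25a13, Slc25a20, Slc25a26, Slc25a28, Slc25a39 and Slc25a47 were 0.51, 0.23, 0.36, 0.85, 0.37 and 2.96. The number of hearts limits each of these values.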

How the results depend on the processing

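RLE size factors and DESeq2 kept the direction and the call of all 35 values named for single carriers, and leaving out 1 heart kept 281 of 353, the other 72 losing the call without a change of sign. With the table set as a covariate on hearts, chosen after seeing the data, 20 of 30 values kept their call and 9 lost it. For the Ant1 vector comparisons with wild type that fit rests on knockout heart 20. It reaches the knockout ND6 hearts of that vector only through knockout hearts of other sets. A call lost there therefore does not show that the difference is smaller. Single libraries with the table as a covariate kept 21 of 29, with 7 lost. Only the compared groups in the fit kept 26 of 35, with 9 lost. The direction turned for 1 value, Slc25a1 in Ant1 vector knockout hearts, to -0.14 with the table as a covariate on hearts or single libraries. In the fit of single libraries Slc25a14, Slc25a30 and Slc25a25 (knockout ND6, Ant1 vector) had adjusted p = 0.246, 0.471 and 0.392. The cause was not tested.

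Counts of called carriers moved by over 1.5 times as follows. The share of all genes called under each setting is not set beside these counts or those with 1 heart left out. A moved count is therefore not read as a result about the carriers. DESeq2 called 2 between knockout ND6 and knockout hearts, 8 and 4 between vectors in knockout and knockout ND6 hearts, and 3 and 1 for the vector by genotype differences. With only the compared groups in the fit the counts were 5 for control vector knockout ND6 against wild type, 5 for knockout ND6 against knockout, 3 for Ant1 vector knockout against wild type and 0 between vectors in knockout hearts. Hearts 61 and 91 as control vector hearts gave 5 for knockout ND6 against wild type and 3 for knockout ND6 against knockout. That setting goes against their Slc25a4 level, 169 and 151 CPM, where null hearts with the control vector had 0.219 to 2.03 CPM. The table set as covariate, chosen after seeing the data, gave 3 for the latter comparison and 3 for Ant1 vector knockout against wild type. Single libraries gave 12 and 10 for knockout and knockout ND6 against wild type with the control vector, 11 for knockout ND6 against knockout, 14 over all null hearts, and 3 and 1 for the vector by genotype differences. That fit counts libraries of 1 heart as partly separate, so its counts can be too high. Without hearts 27 and 37, also chosen after seeing the data, the counts were 9 and 5 between vectors, 15 over all null hearts, and 2 and 1 for the vector by genotype differences.

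Leaving out 1 heart at a time gave 4 to 7 carriers for knockout and 1 to 5 for knockout ND6 against wild type with the control vector, and 1 to 5 and 5 to 7 with the Ant1 vector. It gave 0 to 1 for knockout ND6 against knockout, 8 to 13 over all null hearts, and 0 to 6, 1 to 4 and 0 to 1 between vectors in knockout, knockout ND6 and wild type hearts. The vector by genotype differences gave 0 to 2 and 0 to 1. Without heart 8, Slc25a14 over all null hearts lost its call (adjusted p = 0.0516), and the other 16 values that rest on it kept theirs. No paired analysis was possible because the groups compared share no heart and their title numbers mark different animals by the labelled genotypes. Vector comparisons could not be fitted with the table as a covariate, since the control vector and Ant1 vector groups share no table (hearts 61 and 91, which share theirs with 2 control vector hearts, have conflicting labels). Carriers with a few counts a heart, such as Slc25a18, limit what can be seen at this depth.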
